A study of Mus musculus with 4 samples.

Results

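The genes described here are 31 members of the machinery that processes antigens and presents them on major histocompatibility complex (MHC) proteins, measured in infarcted hearts of endothelial S1pr1 knock-out and wild-type mice. They were chosen by name, out of 20659 genes that the arrays' probes could be named for, and fall into 16 class I members, 10 class II members and 5 co-stimulatory members. Every member had a probe, and all 31 were well above background on all 4 arrays. Class I members had a median range over the 4 arrays of 0.708 on the log2 scale, against 2.14 for class II members. Class II members differed widely between arrays of the same genotype, with WT replicate 1 highest for 10 of 10, against 39.0% of all features.

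MHC class I molecules sit on nearly all nucleated cells and show peptides from inside the cell to CD8 T cells. The peptides are cut by the proteasome, carried into the endoplasmic reticulum by the transporter TAP and loaded on a heavy chain paired with beta-2-microglobulin. MHC class II molecules are made mainly by dendritic cells, B cells and activated macrophages, and show peptides from engulfed proteins to CD4 T cells. Their assembly depends on the invariant chain Cd74 and on the peptide exchange factor H2-DM, which H2-DO restrains. Interferon gamma raises both classes, through the transactivators NLRC5 for class I and CIITA for class II. In the infarcted heart, the cells that carry class II are mostly immune cells that enter or reside in the tissue.

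The KO group held 2 arrays (KO replicates 3 and 4) from male mice in which a Cre driven by the VE-cadherin promoter (VE-Cad-Cre-S1pr1 fl/fl) is meant to delete S1pr1, a receptor for sphingosine 1-phosphate, in endothelial cells. The WT group held 2 arrays (WT replicates 1 and 3) from male mice. All hearts were taken 5 days after a coronary artery (the left anterior descending) was tied off, so both groups had an infarct and no uninjured heart was analysed here. Neither the strain or age of the mice, nor whether WT mice carried the floxed allele or the Cre, is given in the sources used here. Total RNA of the heart was read on Agilent mouse arrays in a single colour, Cy3. Whether every array came from its own heart is not stated in the labels. The p-values then measure nothing beyond the spread among these 4 samples, and that spread may be technical. In bulk tissue, fewer cells of a type and less RNA per cell cannot be told apart. MHC genes vary between mouse strains, and whether the probes fit the alleles of all 4 samples was not tested.

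Each level is a log2 signal after the array's own 75th percentile was subtracted, so 0 is that percentile, and no probe's level is compared with another probe's. Each difference is log2, KO minus WT, and array values are given as KO replicates 3 and 4 against WT replicates 1 and 3. The share of spots well above background was 72.1% to 74.0% on the KO arrays and 55.5% to 70.1% on the WT arrays, with the lowest share on WT replicate 1. All arrays lay on 1 slide in 1 scan, KO at positions 2 and 1 and WT at positions 4 and 3, so position and genotype cannot be told apart. S1pr1 stood at -2.69 and -2.30 on the KO arrays, against 0.43 and 0.95 on the WT arrays. Its arrays did not overlap. All 14 cardiomyocyte markers were well above background on every array, and their mean was 5.97 and 6.78 on the KO arrays against 2.01 and 6.19 on the WT arrays. WT replicate 1 thus stood apart in heart muscle genes. Precision is limited by having 4 arrays: with 2 against 2, an exact two-sided permutation test cannot give a p below 0.333.

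The sequences below are shown because class II genes are known for a common promoter module, found here in some members only. Its part in the values was not tested. RefSeq promoter sequences (GRCm38.p6, 250 bases before to 50 bases after an annotated start) matched 22 of the 31 members: 13 class I, 7 class II and 2 co-stimulatory. Cd40, Cd74, Cd83, Cd86, Ciita, H2-Ab1, Nlrc5, Tap2 and Tapbpl had no entry. As background, class II promoters hold an X box, bound by the RFX complex, and downstream of it a Y box, bound by NF-Y, and CIITA acts through the proteins bound there. In the class II lines below, capitals mark the letters GNAAC, which occur in the X box, and the Y box letters TGATTGG. Each line runs 5′ to 3′ on the strand of the gene.
H2-Aa: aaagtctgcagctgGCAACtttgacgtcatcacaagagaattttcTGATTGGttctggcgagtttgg
H2-Eb1: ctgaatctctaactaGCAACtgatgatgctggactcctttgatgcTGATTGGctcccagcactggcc
H2-DMb1: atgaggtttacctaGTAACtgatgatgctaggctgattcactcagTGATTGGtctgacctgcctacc
H2-Oa: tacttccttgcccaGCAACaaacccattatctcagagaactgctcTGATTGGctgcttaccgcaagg
H2-Ob: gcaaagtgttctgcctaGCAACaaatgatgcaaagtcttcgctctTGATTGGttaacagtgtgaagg

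These windows lie at chr17:34287852-34287918 on the minus strand for H2-Aa, and on the plus strand at chr17:34305761-34305827 for H2-Eb1, chr17:34153083-34153149 for H2-DMb1, chr17:34092289-34092355 for H2-Oa and chr17:34238801-34238867 for H2-Ob. TGATTGG begins at positions -63 to -45 relative to the annotated start. GNAAC begins 28 bases before it in H2-Ob, 30 in H2-Eb1 and 31 in H2-Aa, H2-DMb1 and H2-Oa. Of all 32851 promoter entries, 7.82% hold TGATTGG on either strand, and 0.280% hold GNAAC beginning 26 to 34 bases before it on the same strand. That spacing was set after these sequences were read, and the combined pattern includes TGATTGG by construction. The combined pattern was found in 5 of the 7 matched class II members, those printed, and in 0 of the 13 class I and 0 of the 2 co-stimulatory members. The windows of H2-DMa and Ifi30 hold no TGATTGG.

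For class I, promoters of the heavy chains and beta-2-microglobulin are shown, because NLRC5 acts on class I promoters and interferon factors bind there. In H2-K1 and H2-D1 the capitals mark the reverse strand of the Y box letters, and in B2m they mark GAAA repeated after any 2 bases, the letters of an interferon-stimulated response element (ISRE).
H2-K1: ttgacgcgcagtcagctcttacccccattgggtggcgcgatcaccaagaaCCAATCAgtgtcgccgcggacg
H2-D1: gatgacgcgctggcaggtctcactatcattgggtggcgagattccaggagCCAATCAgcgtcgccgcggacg
B2m: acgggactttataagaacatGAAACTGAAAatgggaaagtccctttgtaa

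These lie at chr17:34000318-34000389 on the minus strand, chr17:35262991-35263062 on the plus strand and chr2:122147528-122147577 on the plus strand. The marked letters begin at position 8 relative to the annotated start in H2-K1, after that start, at -53 in H2-D1 and at -139 in B2m. Whether NLRC5 acts through the marked letters was not tested. TGATTGG on either strand was found in 5 matched class I members (H2-D1, H2-K1, H2-T23, Psmb9 and Tap1), in the same 5 class II members and in Irf8. The ISRE letters were found in B2m, Erap1, H2-T23 and Psme1, against 3.44% of all entries. The interferon gamma activated letters TTCNNNGAA were found in H2-M3, Psmb8 and Irf8, against 8.30% of all entries. Both strands were searched throughout, and a match is a description of letters only.

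No member passed limma's test of KO against WT. Neither did S1pr1, the gene meant to be deleted, with a difference of -3.19 (SE 0.38, limma adjusted p = 0.740). With the threshold at an adjusted p of 0.05, the fit called 0 of 22925 features higher (0%) and 0 lower (0%) in KO, and eBayes with trend and robust options also called 0. The members' adjusted p-values in limma ran from 0.740 to 0.973. Of the 31 members, 25 had a lower mean in KO and 6 a higher one, where 45.2% of all features had a lower mean. With KO replicate 4 left out 15 members were lower, and with WT replicate 1 left out 18 were. Nlrc5 alone had an unadjusted p under 0.05, against 1.35% of all features lower and 1.41% higher by that rule. Both KO arrays lay below both WT arrays for 6 members (19.4%), against 16.1% of all features. Both lay above for 2 members (6.45%), against 18.3% of all features. The 6 were Nlrc5, Psmb8, Psmb9, Psme2, Ifi30 and Cd40, and the 2 were Cd83 and Tapbpl.

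**Figure D1:**
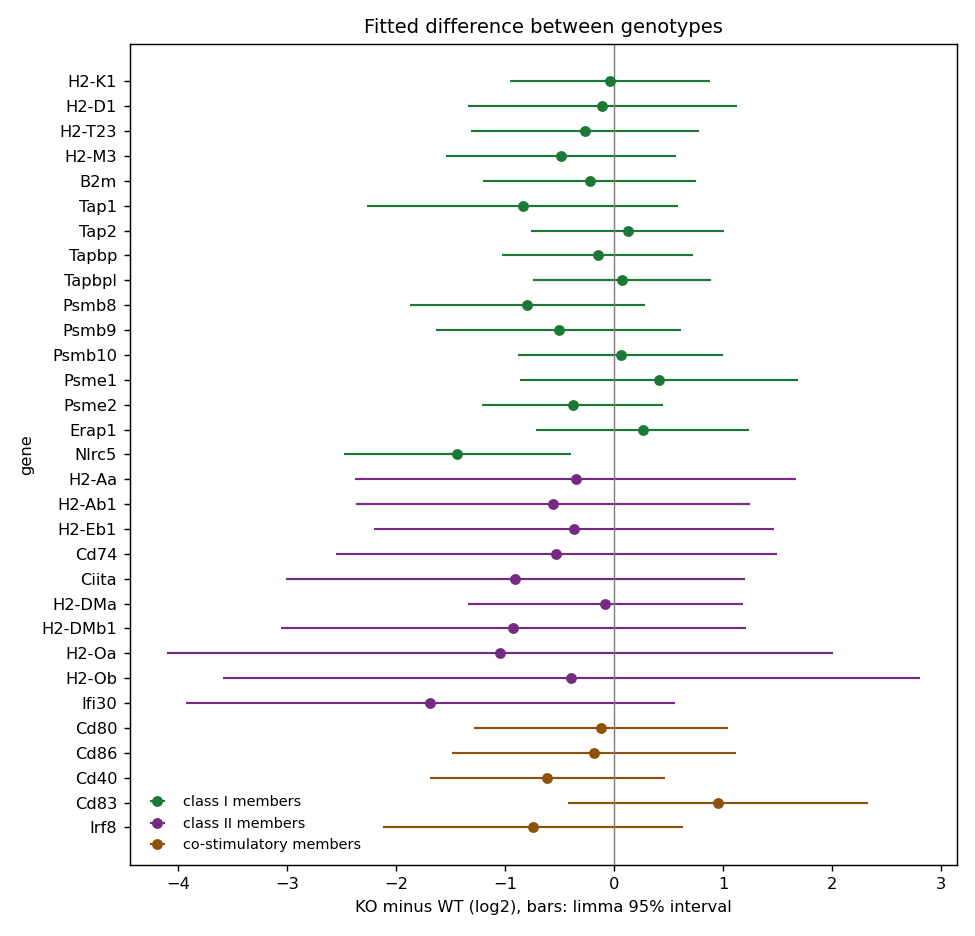
Fitted difference, KO minus WT, of each of the 31 members on the log2 scale, with limma's 95% interval as a bar and the 3 member groups in colour. Nlrc5 is the only member whose interval (-2.48 to -0.40) excludes 0, without correction for the number of features, and the intervals of all class II members but H2-DMa are wider than those of the other members.

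The class I heavy chains and their light chain were alike between genotypes within wide intervals. H2-K1, a classical heavy chain, stood at 5.83 and 5.50 on the KO arrays, against 5.86 and 5.53 on the WT arrays. The spread within each genotype was about as large as the whole range, and the groups overlapped. Its difference was -0.03 (SE 0.34, 95% interval -0.95 to 0.88). H2-D1, the other classical heavy chain, stood at 3.78 and 3.06 against 3.89 and 3.17 in WT, with a difference of -0.11 (SE 0.46, 95% interval -1.34 to 1.13). The interval for H2-D1 covers differences of more than 2-fold either way, so these arrays do not show that the genotypes are equal. B2m, beta-2-microglobulin, stood at 5.77 and 5.19 against 5.75 and 5.65 in WT, and KO replicate 4 was the only array set apart. Its difference was -0.22 (SE 0.36). The heavy chains are close in sequence and their probes may share signal, so single values for them are uncertain. The other H2-K1 probe had a difference of -0.16.

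The non-classical heavy chains followed. H2-T23 (Qa-1), which presents leader peptides of other class I chains to NK cell receptors, stood at 3.14 and 2.47 on the KO arrays against 3.21 and 2.93 on the WT arrays, a difference of -0.26 (SE 0.39). H2-M3, which presents formylated peptides, stood at 1.31 and 0.79 against 1.81 and 1.27 in WT, a difference of -0.49 (SE 0.39). For both genes WT replicate 1 was highest and KO replicate 4 lowest, and KO replicate 3 lay above WT replicate 3.

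Genes that carry and load peptides varied in direction. Tap1, a subunit of the TAP transporter, stood at -2.74 and -3.92 on the KO arrays against -2.76 and -2.22 on the WT arrays, a difference of -0.84 (SE 0.53). Tap2, its partner subunit, stood at 1.58 and 1.65 against 1.30 and 1.68 in WT, a difference of 0.12 (SE 0.33). KO replicate 4 was thus the lowest array for Tap1 but not for Tap2, and both genes overlapped between genotypes. Tapbp (tapasin), which bridges TAP and the heavy chain, differed by -0.15 (SE 0.33). Tapbpl, a tapasin-like peptide editor, stood at -1.28 and -1.37 against -1.42 and -1.38 in WT. Its KO values were both higher, but all 4 arrays lay within 0.136 of each other and the difference was 0.07 (SE 0.30). Erap1, the aminopeptidase that trims peptides in the endoplasmic reticulum, differed by 0.26 (SE 0.36).

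The immunoproteasome subunits Psmb8 and Psmb9, which replace constitutive catalytic subunits under interferon, were lower on both KO arrays without passing the test. Psmb8 stood at 1.16 and 0.38 on the KO arrays against 1.58 and 1.56 on the WT arrays, a difference of -0.80 (SE 0.40, 95% interval -1.87 to 0.28, limma adjusted p = 0.740). Psmb9 stood at 0.94 and 0.09 against 1.02 and 1.02 in WT, a difference of -0.51 (SE 0.42). In both genes the WT arrays were nearly equal and KO replicate 4 held most of the gap, since KO replicate 3 minus WT replicate 3 was -0.40 for Psmb8 and -0.08 for Psmb9. Without KO replicate 4 the difference was -0.41 for Psmb8 and -0.08 for Psmb9. Psmb10, the third inducible subunit, stood at 3.21 and 3.09 against 2.83 and 3.34 in WT and differed by 0.06 (SE 0.35).

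Psme1 and Psme2 encode subunits of the proteasome activator PA28, and neither passed the test. Psme1 stood at 3.35 and 4.01 on the KO arrays against 2.84 and 3.70 on the WT arrays, overlapping, with a difference of 0.41 (SE 0.47) that was -0.018 without WT replicate 1. Psme2 stood at 4.49 and 4.51 against 4.79 and 4.97 in WT, with both KO arrays lower, and differed by -0.38 (SE 0.31). Its other probe differed by -0.20. The constitutive proteasome list, 11 subunits that do not depend on interferon, had 6 members lower and 5 higher in KO, with a median of -0.02 and a range of -0.32 to 0.32. Its members of smallest p were Psma3 (-0.32), Psma5 (-0.30) and Psmb7 (0.32), and 0 passed in either direction.

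Nlrc5, the class I transactivator, had the largest difference among class I members. Its main probe stood at 0.52 and -0.20 on the KO arrays against 1.64 and 1.56 on the WT arrays, with averages of 0.16 ± 0.50 in KO and 1.60 ± 0.06 in WT (SD, n = 2 each). Both KO arrays lay below both WT arrays by more than the spread within either genotype. The difference was -1.44 (SE 0.39, 95% interval -2.48 to -0.40), a fold of 2.71, with a limma adjusted p = 0.740 and rank 124 of 22925 by unadjusted p (0.0176). It ran from -1.80 to -1.08 when each array was left out in turn, and KO replicate 3 minus WT replicate 3 was -1.04. A second Nlrc5 probe, dim and well above background on 3 of 4 arrays, stood at -5.23 and -4.78 against -5.66 and -5.15 in WT, a difference of 0.40 the other way. The mean of both probes differed by -0.52. Which transcripts each probe reads was not determined here.

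As a group, class I members had a median difference of -0.19, with 11 lower and 5 higher, where the median of all features was 0.07. That direction depended on KO replicate 4, without which the median was 0.071 and 6 of 16 were lower. KO replicate 4 was lowest for 10 of 16, against 27.6% of all features. Group means of the 16 members were 1.97 and 1.61 on the KO arrays and 2.03 and 2.09 on the WT arrays. The median over members of KO replicate 4 minus KO replicate 3 was -0.43, and that of WT replicate 1 minus WT replicate 3 was -0.02. A member's range over the 4 arrays had a median of 0.708.

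**Figure D2:**
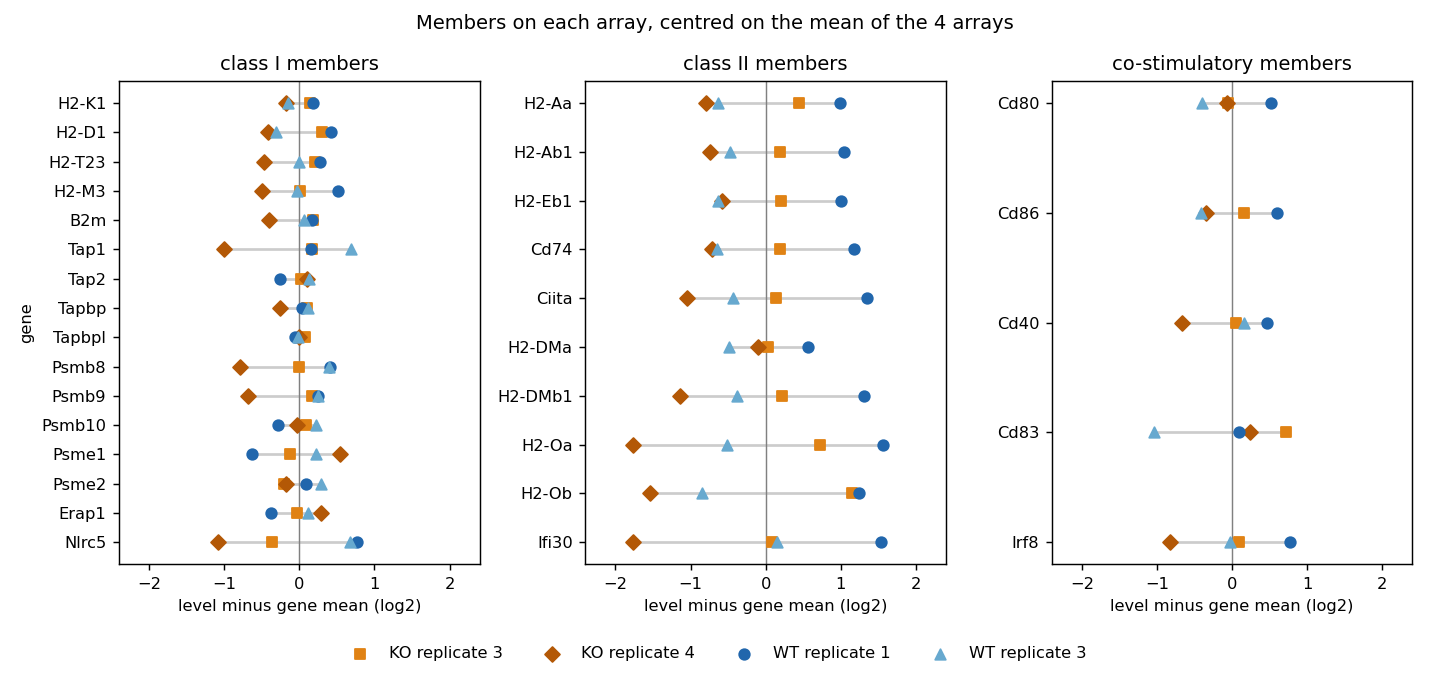
Each member on each of the 4 arrays, as its log2 level minus its own mean over the arrays, in 3 panels for class I, class II and co-stimulatory members. Of the 16 class I members, Nlrc5, Tap1, Psmb8, Psme1 and H2-M3 range over more than 1 across the arrays, while all 10 class II members do, and for each of them WT replicate 1 lies farthest right and, for 8 of 10, KO replicate 4 farthest left.

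The class II chains themselves were ordered by array and not by genotype. H2-Ab1, the beta chain of the I-A molecule, stood at 4.36 and 3.43 on the KO arrays against 5.21 and 3.69 on the WT arrays, and its other probe gave a near-equal difference (-0.47 against -0.56). H2-Aa, the I-A alpha chain, stood at -0.95 and -2.20 against -0.41 and -2.03 in WT. H2-Eb1, the beta chain of I-E, stood at 3.69 and 2.90 against 4.48 and 2.85 in WT. In all 3 genes WT replicate 1 was highest, KO replicate 3 next, and the remaining pair of arrays lowest. The difference was -0.56 for H2-Ab1 (SE 0.67), -0.35 for H2-Aa (SE 0.75) and -0.37 for H2-Eb1 (SE 0.68). Cd74, the invariant chain, followed the same order, at 2.31 and 1.41 against 3.30 and 1.47 in WT, a difference of -0.53 (SE 0.75, 95% interval -2.55 to 1.49). WT replicate 1 minus WT replicate 3 was 1.52 for H2-Ab1, 1.62 for H2-Aa, 1.63 for H2-Eb1 and 1.83 for Cd74, larger than any of the differences between genotypes.

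Ciita, the transactivator of these genes, stood at -2.17 and -3.35 on the KO arrays against -0.97 and -2.75 on the WT arrays. It differed by -0.91 (SE 0.78), with the arrays in the order of H2-Ab1, and by -0.016 without WT replicate 1 and -0.31 without KO replicate 4. H2-DMa and H2-DMb1 encode the chains of H2-DM. H2-DMb1 stood at 0.80 and -0.56 against 1.89 and 0.20 in WT, a difference of -0.92 (SE 0.80) that was -0.078 without WT replicate 1 and -0.24 without KO replicate 4. H2-DMa stood at -2.67 and -2.80 against -2.13 and -3.18 in WT, a difference of -0.08 (SE 0.47), and was the class II member that varied least. The H2-DMb1 probe may share signal with the related gene H2-DMb2, whose own probe was well above background on 1 array.

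H2-Oa and H2-Ob encode the chains of H2-DO, and had the largest standard errors of the members. H2-Ob stood at -1.79 and -4.47 on the KO arrays against -1.69 and -3.79 on the WT arrays, so that 1 array of each genotype was high and 1 low. Its difference was -0.39 (SE 1.19), and that of its dimmer probe was 0.34. The mean of both probes differed by -0.026, and normexp gave -0.00043. H2-Oa stood at -3.34 and -5.83 against -2.50 and -4.58 in WT, a difference of -1.04 (SE 1.14). Its value depended on how dim signals were treated, at -0.42 with a common floor and -0.23 with normexp. KO replicate 4 minus KO replicate 3 was -2.68 for H2-Ob and -2.49 for H2-Oa. H2-DO is made chiefly in B cells. The 8 tested B cell markers had means of -1.66 and -4.12 on the KO arrays against -1.96 and -3.63 on the WT arrays. In the KO mean, 4 of them were lower and 4 higher. KO replicate 3 and WT replicate 1 were each the higher array of their genotype for H2-Oa, H2-Ob and this list mean. The highest array differed: WT replicate 1 for H2-Oa and H2-Ob, but KO replicate 3 for 7 of 8 tested B cell markers. KO replicate 4 was lowest for 5 of the 8. The part of B cell content in the H2-Oa and H2-Ob values was not tested.

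Ifi30 (GILT), a lysosomal reductase that opens disulphide bonds of engulfed proteins, was the class II member with the largest difference. It stood at 0.35 and -1.49 on the KO arrays against 1.81 and 0.43 on the WT arrays, a difference of -1.69 (SE 0.84, 95% interval -3.93 to 0.56, limma adjusted p = 0.740). The genotypes did not overlap, but KO replicate 3 and WT replicate 3 lay within 0.08 of each other. Without KO replicate 4 the difference was -0.77, and without KO replicate 3 it was -2.61.

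Class II members had a median difference of -0.54, with 10 of 10 lower in the KO mean. Their group means were 0.06 and -1.30 on the KO arrays and 0.90 and -0.77 on the WT arrays, so KO replicate 3 lay above WT replicate 3. WT replicate 1 was the highest array for 10 of 10 members, against 39.0% of all features. KO replicate 4 was the lowest for 8 of 10, against 27.6% of all features. KO replicate 3 lay above WT replicate 3 for 9 of 10, all but Ifi30, against 45.5% of all features. The median difference turned to 0.29 without WT replicate 1 and to 0.75 between the arrays numbered 3 alone. It was -1.26 without KO replicate 3, -0.04 without KO replicate 4 and -1.44 without WT replicate 3. That all 10 had a lower KO mean therefore rests on WT replicate 1 and KO replicate 4.

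**Figure D3:**
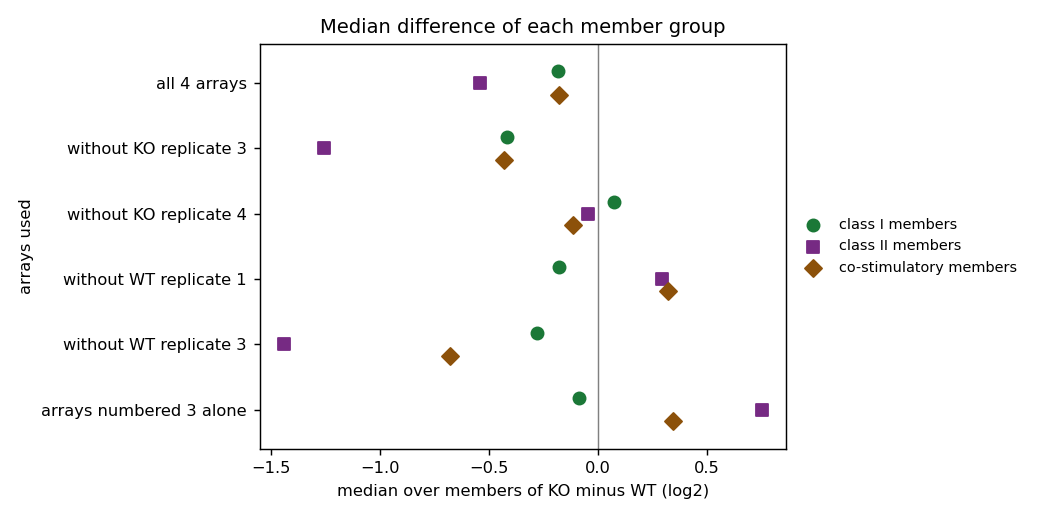
Median over members of KO minus WT on the log2 scale for class I, class II and co-stimulatory members, with all 4 arrays, with each array left out, and for the arrays numbered 3 alone. The class II median runs from -1.44 without WT replicate 3 to 0.75 between the arrays numbered 3. The class I median runs from -0.42 without KO replicate 3 to 0.07 without KO replicate 4.

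Of the co-stimulatory members, Cd80 and Cd86 give T cells the further signal they need beside the MHC. The group also holds Cd40, Cd83 and the transcription factor Irf8. Cd80 and Cd86, ligands of CD28 on antigen-presenting cells, differed by -0.12 (SE 0.43) and -0.18 (SE 0.49), and both were highest on WT replicate 1 and lowest on WT replicate 3. Cd86 stood at -0.46 and -0.96 on the KO arrays against -0.03 and -1.03 on the WT arrays. The other Cd80 probe differed by -0.93, and the mean of both by -0.53. Cd40, through which T cells activate antigen-presenting cells, stood at -0.62 and -1.33 against -0.21 and -0.52 in WT, with both KO arrays lower, and differed by -0.61 (SE 0.40).

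Cd83, a surface protein of mature dendritic cells that stabilises MHC class II and CD86, went the other way from the rest of this group. It stood at 0.26 and -0.23 on the KO arrays against -0.38 and -1.50 on the WT arrays, with both KO arrays higher. The difference was 0.96 (SE 0.51, 95% interval -0.42 to 2.34, limma adjusted p = 0.740), and it was 0.39 without WT replicate 3. KO replicate 3 minus WT replicate 3 was 1.76, larger for Cd83 than the pair's differences for Cd80 (0.35), Cd86 (0.57), Cd40 (-0.10) and Irf8 (0.12). Irf8, a transcription factor of dendritic cells and monocytes, stood at 1.26 and 0.34 against 1.94 and 1.14 in WT and differed by -0.74 (SE 0.51). The 5 members had a median difference of -0.18, which was 0.32 without WT replicate 1, -0.53 with a gene's probes averaged and -0.086 with normexp.

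Other genes of these pathways were compared as lists, and 0 of their members passed in either direction. Of 15 tested genes for class I loading and peptide supply, 11 were lower and 4 higher (median -0.20), where 45.2% of all features had a lower mean. KO replicate 3 minus WT replicate 3 had a median of 0.03 over these genes and was negative for 7 of 15. The smallest p were for Sec61a1 (-1.09), the translocon subunit, Calr (-0.93), the chaperone calreticulin, and Psme4 (1.08), a proteasome activator. Of 14 tested genes for class II processing and transactivation, 11 were lower and 3 higher (median -0.41), and KO replicate 3 lay below WT replicate 3 for 9. There, both KO arrays lay above both WT arrays for 1 gene, against 18.3% of all features. Both lay below for 7 of the 14 genes, against 16.1% of all features. They include the lysosomal proteases Lgmn, at 4.57 and 4.15 on the KO arrays against 5.80 and 5.48 on the WT arrays (-1.27, SE 0.35), and Ctss (-1.74, SE 0.76), which cut the invariant chain. Rfxap, an RFX subunit, had the next smallest p and differed by 0.63. For the proteases, unlike the class II chains, KO replicate 3 lay below WT replicate 3.

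Of 13 tested genes of interferon gamma signalling, 11 were lower and 2 higher (median -0.22), where 45.2% of all features had a lower mean. KO replicate 3 minus WT replicate 3 had a median of -0.001 over these genes and was negative for 7 of 13. Those of smallest p were the receptor subunit Ifngr2 (0.81), Irf9 (-0.76) and the chemokine Cxcl9 (0.78). Ifng itself was well above background on 1 of 4 arrays and was not tested. T cell co-signalling genes were split evenly, 6 lower and 6 higher of 12 tested (median -0.05), with Cd200r1 (-2.12), Tnfsf9 (-1.10) and Icos (0.53) of smallest p.

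Markers of the cells that carry class II were compared across the same arrays. WT replicate 1 was highest for 14 of 14 tested macrophage, 8 of 8 leukocyte and 8 of 12 dendritic cell markers, against 39.0% of all features. It was highest for 0 of 8 B cell markers, where KO replicate 3 was highest for 7. Dendritic cell markers (12 of 14 tested, 8 lower) had means of -1.77 and -2.61 on the KO arrays against -1.04 and -2.23 on the WT arrays, with Itgax (-2.82), Flt3 (-0.86) and Zbtb46 (0.46) of smallest p. Macrophage markers (14 of 15 tested, 14 lower) had means of 1.67 and 0.40 against 2.70 and 1.63 in WT, with Fcgr1 (-2.82), Aif1 (-1.70) and Mpeg1 (-2.44) of smallest p. B cell markers (8 of 10 tested, 4 lower) had means of -1.66 and -4.12 against -1.96 and -3.63 in WT. In these 3 list means, as in that of class II members, KO replicate 3 lay above WT replicate 3 and KO replicate 4 was lowest. For macrophage markers that gap was small, and KO replicate 3 minus WT replicate 3 was negative for 5 of 14, including Fcgr1 (-2.05), Aif1 (-0.88) and Mpeg1 (-0.70). It was also negative for 3 of 12 dendritic cell markers, including Itgax (-0.93). Pax5 (0.52), Bank1 (0.86) and Cr2 (0.46) had the smallest p among B cell markers, of which Blk was well above background on 0 arrays and Cd79a on 1.

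Leukocyte markers (8 of 8 tested, 8 lower) had means of 0.89 and -0.67 on the KO arrays against 2.29 and 1.09 on the WT arrays. Lcp1 (-1.99), Cd52 (-2.09) and Coro1a (-1.49) had the smallest p. Both KO arrays lay below both WT arrays for 6 of 8 leukocyte and 5 of 14 macrophage markers, against 16.1% of all features. The same held for 1 of 12 dendritic cell and 0 of 8 B cell markers. T and NK cell markers (11 of 13 tested, 5 lower) had means of -2.59 and -3.54 against -2.65 and -3.56 in WT, with Gzma (-1.18), Cd8b1 (0.75) and Cd4 (0.40) of smallest p. Endothelial markers were higher in the KO mean for 12 of 12, at 1.44 and 1.36 against 0.80 and 1.17 in WT. Of all features, 45.2% had a lower KO mean. Both KO arrays lay above both WT arrays for 7 of the 12, against 18.3% of all features. WT replicate 1 was lowest for 9 of the 12, against 41.7% of all features. Cldn5 (1.19), Tek (0.81) and Tie1 (0.45) had the smallest p. Fibroblast markers were split 5 and 5 (median -0.05), with Fbln1 (0.998), Dcn (0.64) and Col1a2 (-1.08) of smallest p. Ckm (3.88), Mb (2.13) and Ckmt2 (2.91) had the smallest p of the cardiomyocyte markers, which were all lowest on WT replicate 1. The part of cell content in the class II values was not tested.

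**Figure D4:**
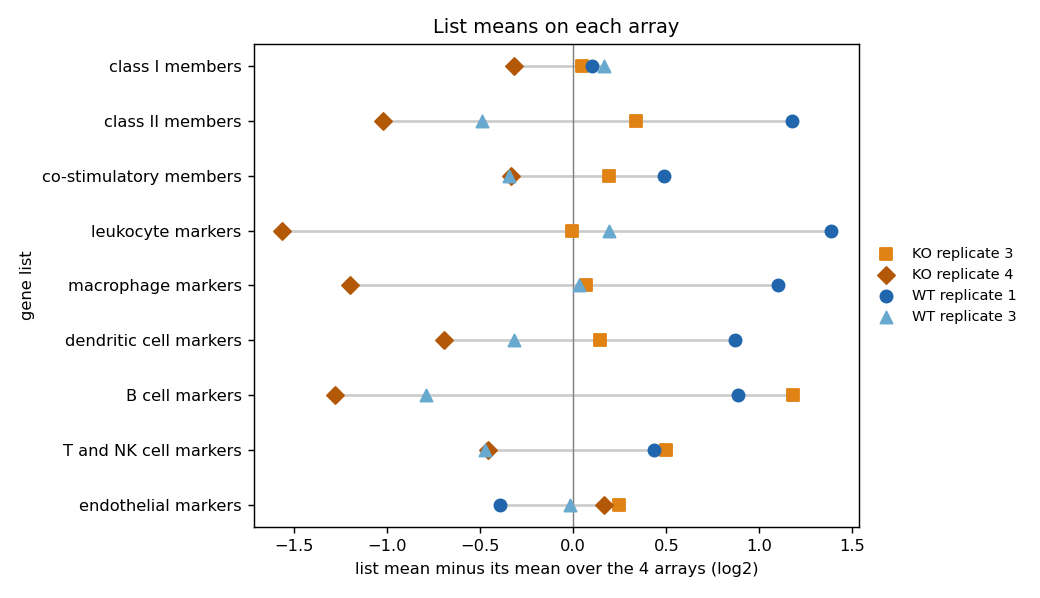
Mean log2 level of 9 gene lists on each array, minus the list's own mean over the 4 arrays. Class II members spread from -1.02 on KO replicate 4 to 1.18 on WT replicate 1, while class I members span -0.32 to 0.17. The leukocyte, macrophage and B cell markers spread at least as widely as class II members. Leukocyte markers run from -1.57 on KO replicate 4 to 1.39 on WT replicate 1. The dendritic cell and macrophage markers have the same order of arrays as class II members. For macrophage markers, KO replicate 3 (0.07) and WT replicate 3 (0.03) are nearly equal.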

How the data were processed

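Heart RNA of 2 KO and 2 WT samples was measured, and samples were grouped by title. The array images were quantified in Feature Extraction 11.0.1.1, per the file headers, whereas version 9.1 is named in the submitters' processing notes. The deposited processed signal, a linear intensity, was background-subtracted and detrended within each array, per the file headers. The deposited spot flags are other values and were not changed. A deposited log2 table, whose columns share a median of 6.12 and alike quartiles, served as an alternative. How it was normalized is not given in the sources used here. Its median differences for class I (-0.22) and class II members (-0.58) were nearly the same as with quantile normalization. These alternatives are therefore hardly separate checks.

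After removal of control and outlier spots, the log2 signals of repeated spots were averaged per probe, and each array's 75th percentile subtracted. Probes well above background on at least 2 arrays were kept, with the brightest probe per gene. RefSeq accessions named 27234 of 39429 probes (GRCm38.p6 table). The arrays' grid uses mm9, and the coordinates printed are those of the RefSeq promoter table, not of probes. KO was compared with WT over 22925 features with lmFit and eBayes (limma 3.58.1 under R 4.3.3); tests were two-sided and p-values adjusted by Benjamini-Hochberg, with a threshold of 0.05; the code was tested on simulated data. The members and lists were chosen with earlier results of these data known. The text names all members, S1pr1 and the 3 genes of smallest p of each other list, plus some genes too dim to be tested.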

Additional observations from a re-analysis of the deposited data

How the results depend on the processing

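In limma, 0 features passed an adjusted p of 0.05 under every alternative fitted, and 0 passed when the threshold was 0.10. The smallest adjusted p of a member in these fits was 0.260, without WT replicate 3. The alternatives were array median scaling, quantile normalization, the deposited values, normexp (offset 50) on median signals, chosen after seeing the data, no filter, a filter on all 4 arrays, a common floor under dim signals, averaged probes per gene, eBayes with the trend and robust settings, and each array left out. Normexp on mean signals was not run, and median signals took their place. With array median scaling the median difference of all features was -0.04, against 0.07 with the 75th percentile, and Tapbpl differed by -0.040 and Psmb10 by -0.049. No paired analysis was possible because the genotypes share only the number 3. That pair gave a median KO minus WT of 0.75 for class II and 0.35 for co-stimulatory members. With each array left out (1 residual degree of freedom), the median ran from -0.42 to 0.071 for class I, -1.44 to 0.29 for class II and -0.68 to 0.32 for co-stimulatory members. Members whose difference changed sign in these fits ran from -0.20 to 0.13 (H2-K1), -0.47 to 0.25 (H2-D1), -0.60 to 0.071 (H2-T23), -0.52 to 0.072 (B2m), -0.066 to 0.31 (Tap2), -0.32 to 0.028 (Tapbp), -0.19 to 0.31 (Psmb10), -0.018 to 0.84 (Psme1), -1.16 to 0.46 (H2-Aa), -1.31 to 0.20 (H2-Ab1), -1.19 to 0.44 (H2-Eb1), -1.44 to 0.38 (Cd74), -0.61 to 0.45 (H2-DMa), -2.29 to 0.20 (H2-Oa), -1.73 to 0.95 (H2-Ob), -0.58 to 0.34 (Cd80) and -0.68 to 0.32 (Cd86). The cause was not tested. Signal over background limits dim probes, most of all on WT replicate 1, where the lowest processed signal was 10.2 against 1.34 to 1.84 on the other arrays.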
